A study of Bos grunniens with 6 samples.

Results

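The genes described here carry the names of developmental transcription factor families and at least 1 m6A peak in cattle-yak testis. They were chosen from the gene symbols of the authors' peak annotation by the starting letters of SOX, GATA, FOX, HOX, PAX, LHX, MEIS, PBX, POU, TBX, TEAD, VGLL, ETV, ETS, ELK, RUNX, MEF2, NFI, NFE2, E2F, MYB, TCF, DMRT, TFAP and RFX, or the name of a sine oculis homeobox gene such as SIX5, without SOX9, GATA4 and DMRT1. The rule found 241 of 16186 listed peaks, on 141 of 8986 gene identifiers with a peak and on 120 of 7802 symbols. Having a peak is part of the rule and is no finding, and a gene of these families without a listed peak carries no symbol in the tables used here and was not analysed.

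The samples were testes that castration gave from 3 animals, named TES5, TES6 and TES7, all cattle-yaks of 5 years. A cattle-yak is the hybrid of cattle and yak, whose males are sterile. Each animal gave 1 library of RNA pulled down with an antibody against m6A (IP) and 1 library of the same RNA without the pull-down (input), 6 libraries in all. There was 1 condition and no control group, so the members are described within these 3 testes. The authors' peak list is 1 list for the group, with no score and no value per animal, so no spread between animals can be given for a peak. Levels are FPKM (fragments scaled to the length of the transcript and the size of the library) of the 3 input libraries, in which all 141 member identifiers were listed. In whole testis tissue, fewer cells of a type and less RNA per cell cannot be told apart.

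Transcription factors of these families bind DNA through a shared fold, such as the HMG box of SOX proteins, the forkhead of FOX proteins, the homeodomain of HOX and POU proteins or the DM domain of DMRT proteins. In the testis they guide sex determination, the support of germ cells by Sertoli cells, the upkeep of spermatogonial stem cells and the programme of meiosis and sperm formation. The mark m6A is a methyl group placed on adenosines of mRNA by a methyltransferase complex, and it is known to lie mostly in coding exons and 3' UTRs near stop codons and to affect the stability and translation of the mRNA.

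Before the values, the names need a check, because 1 symbol could stand on several identifiers. Of the 120 symbols, 13 stood on more than 1 identifier and together covered 34 identifiers, led by TCF3 on 6 and SOX11 on 4. In the RefSeq annotation of the yak assembly Bosgru_T2T1.0, all 120 symbols were found and 0 of them named more than 1 protein-coding gene. Of the 141 identifiers, 68 (48.2%) carried a gene ontology term of DNA binding in the authors' annotation, against 12.1% of all identifiers with a peak.

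For 20 identifiers the ontology terms named another function than the symbol, not counting 8 identifiers with a term of reverse transcriptase and none of DNA binding, as for 14.7% of all identifiers with a peak. These 8 were TFAP2D, RFX3, RFX4, TCF4, POU2F1, RUNX1T1, SOX5 (ENSBGRG00000000530) and TCF12 (ENSBGRG00000013385). In 16 of the 20 identifiers with terms of another function, a gene of that function lies 1 to 4 genes away from the named one on the RefSeq map. The 14 neighbours concerned had 0 peaks under their own symbols. For example, the identifier listed as NFE2L3 with the highest level of all members, ENSBGRG00000001515, had a term for mRNA export from the nucleus, and HNRNPA2B1, an RNA-binding protein gene, is the next gene to NFE2L3. The identifier listed as DMRTC2 (ENSBGRG00000014536) had a ribosome term and RPS19, a ribosomal protein gene, as its neighbour. The identifier listed as PAX6 (ENSBGRG00000014228) had a calcium-binding term and RCN1, a calcium-binding protein gene, as its neighbour. The 20 identifiers are called "listed as" in what follows. Another 26 identifiers had no term and 14 had terms of the nucleus or cytoplasm only. This check could not be made for them, so a name without "listed as" is not thereby verified.

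Another 13 symbols on 16 identifiers with 30 peaks match the rule by their letters and belong to no transcription factor family above. They were FOXRED1, FOXRED2, GATAD2A, GATAD2B, MYBBP1A, MYBPC2, MYBPC3, PBXIP1, RFXAP, RUNX1T1, TCF19, TCF20 and TCF25. The highest of them was GATAD2A, a subunit of the NuRD chromatin remodelling complex, with FPKM of 78.4, 85.2 and 84.7 in TES5, TES6 and TES7. Next came TCF25, a gene named for a basic helix-loop-helix motif, with 49.2, 46.1 and 47.7. Of the 10 members with the highest mean FPKM, 6 were matched by letters only or had terms of another function.

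The tissue was checked against marker genes that had a symbol in the peak list. Of the markers, 6 of 10 for Sertoli cells and 1 of 7 for Leydig cells were matched. The Sertoli cell markers SOX9, WT1, FSHR, CTNNB1 and CDH2 were above 0 in every animal, and SOX9 had FPKM of 26.7, 27.5 and 28.4 in TES5, TES6 and TES7. The Leydig cell marker STAR was at 100.2 to 112, and the 4 peritubular myoid markers summed to 340 to 384. The 3 blood and immune markers summed to 361 to 384, of which CD74 alone had a mean of 366, and the 3 endothelial markers to 6.71 to 8.59. The 4 of 8 spermatogonial markers found summed to 24.3 in TES5, 25.7 in TES6 and 33.3 in TES7. For spermatocytes, 6 of 7 markers on 11 identifiers summed to 76.5, 53.8 and 58.8, and 1 of these identifiers was listed at 0. That sum adds several identifiers of SYCP2 and DMC1, and the 4 markers on 1 identifier each summed to 40.1, 31.3 and 33.4. None of the 7 spermatid markers had a symbol in the peak list, and they were not analysed.

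The 241 peaks of the members lay mostly in the exon class of the authors' annotation, which does not say whether an exon is coding. The exon class held 161 peaks (66.8%, 95% Wilson interval 60.6% to 72.4%), against 70.3% of all listed peaks. The 3' UTR class held 61 (25.3%, 20.2% to 31.2%), against 20.8%, and the 5' UTR class held 19 (7.88%, 5.11% to 12.0%), against 8.82%. Each of the 3 intervals includes the share over all listed peaks, but without the letters-only symbols the 3' UTR class held 56 of 211 peaks (26.5%, 21.0% to 32.9%), whose interval lies just above it. The intervals cover counting error only, since peaks are not replicates, and the shares over all peaks include the members.

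The counts per family are set beside shares over all listed peaks of 70.3% exon, 20.8% 3' UTR and 8.82% 5' UTR class. All 7 peaks of the E2F genes and all 6 peaks of the POU genes were in the exon class. So were 16 of 18 peaks of the SOX genes and 8 of 9 peaks of the RFX genes. Both peaks of POU2F2, counted here among the POU genes, were annotated to exons of another identifier. The TEAD and VGLL genes had 5 of 7 peaks in the 3' UTR class, the MEF2 genes 4 of 7 and the AP-2 genes 3 of 4. The MEF2 counts include the identifier listed as MEF2B, whose terms named another function. Homeobox genes as a whole had 25 exon, 13 3' UTR and 7 5' UTR class peaks, and forkhead genes had 24, 11 and 1. The bHLH and NFE2 genes held 3 5' UTR class peaks each. These counts are small and come from 1 list, and the differences between families were not tested.

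**Figure D1:**
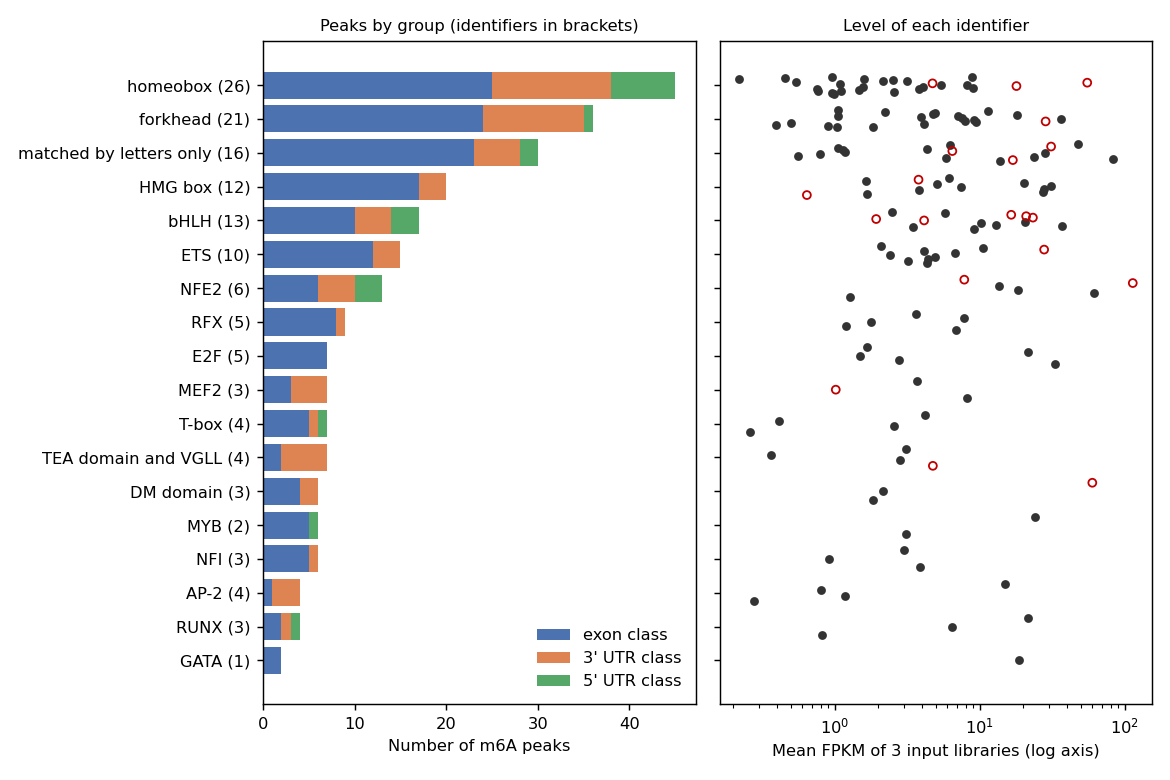
Peaks and levels of the members by group. Left, number of m6A peaks per group (bars from 0, split by exon, 3' UTR and 5' UTR class, number of identifiers in brackets); right, mean FPKM of each identifier over the 3 input libraries on a log axis, with open red circles for the 20 identifiers whose ontology terms name another function. Homeobox genes held the most peaks (45) and forkhead genes came next (36), and the highest level belonged to an open circle of the NFE2 group (mean FPKM 114).

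Peaks of the members were narrower than listed peaks as a whole. A peak's width counts every base between its ends, and so takes in introns. The median width was 600 bp (interval of the median 398 to 996 bp, quartiles 249 and 4254 bp), against 1022 bp over all listed peaks. At most 1000 bp were 138 peaks (57.3%, 50.9% to 63.3%), against 49.8%, and at most 300 bp were 81 (33.6%, 27.9% to 39.8%), against 26.4%. The difference was smaller on members whose FPKM reached 1 in all libraries. There 100 of 191 peaks (52.4%) were at most 1000 bp wide, against 47.0% of all listed peaks at that level. No interval was taken for this share, so whether members at that level differed beyond counting error is not given. Without the symbols matched by letters only, the median width was 446 bp.

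The difference was seen in the exon class. There 91 of 161 peaks (56.5%, 48.8% to 63.9%) were at most 1000 bp wide, against 45.6% of all exon class peaks, with medians of 688 and 1333 bp, and the member median was 422.5 bp without the letters-only symbols. In the 3' UTR class the share was 41 of 61 (67.2%), against 67.2%, with medians of 398 and 447 bp. In the 5' UTR class it was 6 of 19 (31.6%, 15.4% to 54.0%), against 42.1%, with medians of 3064 and 1985 bp. The listed transcripts of the members were also shorter, with a median span of 20926 bp, against 28394 bp over all identifiers with a peak. The part of transcript length in the narrower width was not tested.

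**Figure D2:**
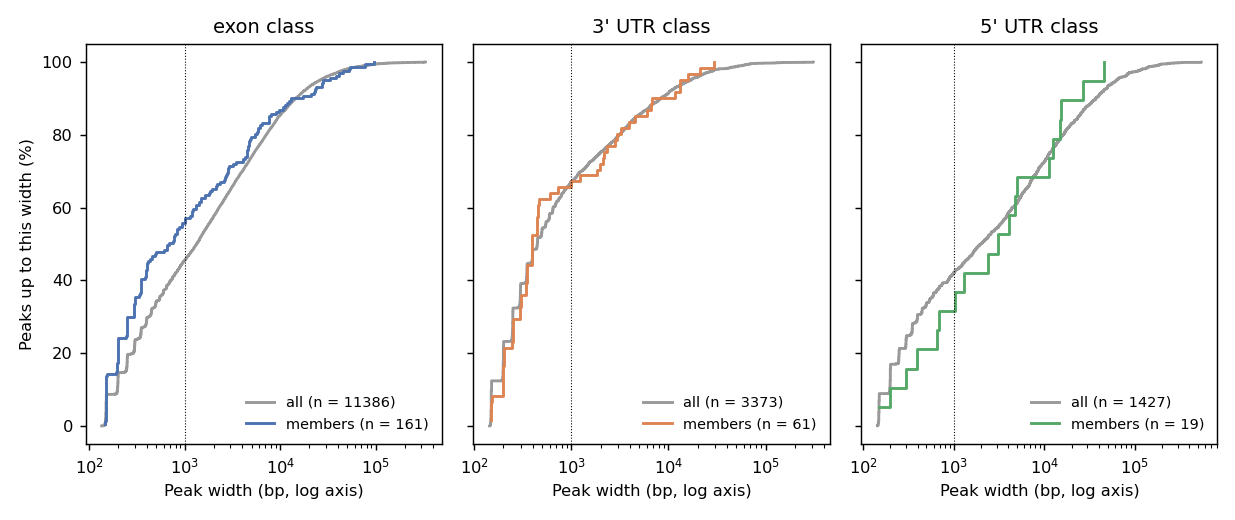
Share of peaks up to a given width for members (coloured) and all listed peaks (grey), by annotation class, with width in bp on a log axis and 1000 bp dotted. At 1000 bp the member line stands at 56.5% against 45.6% for exon peaks and at 31.6% against 42.1% for the 19 peaks of the 5' UTR class, and the lines meet at 67.2% for 3' UTR peaks.

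Over 50000 bp wide were 4 member peaks (1.66%, 0.647% to 4.19%), against 2.17% of all. The widest ran over 95595 bp in the exon class of the identifier named LHX4, after a LIM homeobox gene of pituitary development. It lay on chromosome 14 from 60963822 to 61059416 of LU_Bosgru_v3.0, the build of all coordinates given here. The listed transcript had 8 exons over 217743 bp, and the name was not checked against this model. Others were on MEIS1 (53131 bp, chromosome 9, 88433701 to 88486831) and RUNX1 (52950 bp, chromosome 1, 160505412 to 160558361). MEIS1 encodes a homeodomain partner of HOX proteins and RUNX1 a regulator of blood stem cells. These 3 identifiers were at low or middle levels, with mean FPKM from 0.824 for RUNX1 to 8.13 for the one named LHX4.

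Within the exon class, first exons took a larger and inner exons a smaller share of member peaks than of listed peaks as a whole, a difference given here as shares without a test. The first exon held 44 of 161 peaks (27.3%, 21.0% to 34.7%), against 18.4%, and the last exon held 38 (23.6%, 17.7% to 30.7%), against 18.2%. In transcripts with at least 3 exons, 30 of 137 peaks (21.9%, 15.8% to 29.5%) were in the first exon, against 12.5%, 22 (16.1%, 10.9% to 23.1%) in the last, against 11.6%, and 85 (62.0%, 53.7% to 69.7%) in an inner exon, against 75.9%. Transcripts with 1 or 2 exons held 24 of 161 peaks (14.9%, 10.2% to 21.2%), against 10.8%. These short gene models included SOX3, SOX4, SOX12, FOXC1, FOXF1, FOXJ1, HOXA3 and POU3F1.

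The number of peaks per identifier was close to that of all identifiers with a peak. A single peak was listed for 74 of 141 (52.5%, 44.3% to 60.5%), against 54.0%, while 42 had 2 peaks, 17 had 3 and 8 had 4 (5.67%, 2.90% to 10.8%), against 4.64%. No member had 5 or more (0 of 141, upper bound 2.65%), against 3.28% of all. A 3' UTR class peak was found on 53 identifiers (37.6%, 30.0% to 45.8%), against 32.1%. All 3 classes were found on 2 identifiers (1.42%, 0.390% to 5.02%), NFE2L1 and TBX3, against 1.87%. Neighbouring peaks of 1 identifier could lie close together, since 31 of 100 neighbouring pairs were at most 500 bp apart, against 27.6% of such pairs over all listed peaks, and 11 at most 100 bp, against 10.4%. Another 2 of the 100 neighbouring pairs overlapped, in HOXC6 and RFXAP, against 2.04% of such pairs over all listed peaks.

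The members with 4 peaks were DMRT2, MEF2C, NFE2L3 (ENSBGRG00000001498), TBX3, HOXC6 and SIX5, and among the symbols matched by letters TCF20 and TCF25. In SIX5, a sine oculis homeobox gene, the peaks followed each other along a gene of chromosome 20, with 150 bp and 149 bp in exon 1, 249 bp in exon 2 and 447 bp in the 3' UTR class (62311137 to 62311583). TBX3, a T-box repressor of limb and gland development, had peaks in all 3 classes on chromosome 16. They covered 649 bp in the 5' UTR class (66483699 to 66484347), 1783 bp in exon 1, 150 bp in exon 7 of 8 and 250 bp in the 3' UTR class (66496792 to 66497041). Its FPKM was 4.21 in TES5, 4.56 in TES6 and 3.86 in TES7 (4.21 ± 0.352, SD, n = 3), so 4 peaks were listed on a transcript near the median level of the members.

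**Figure D3:**
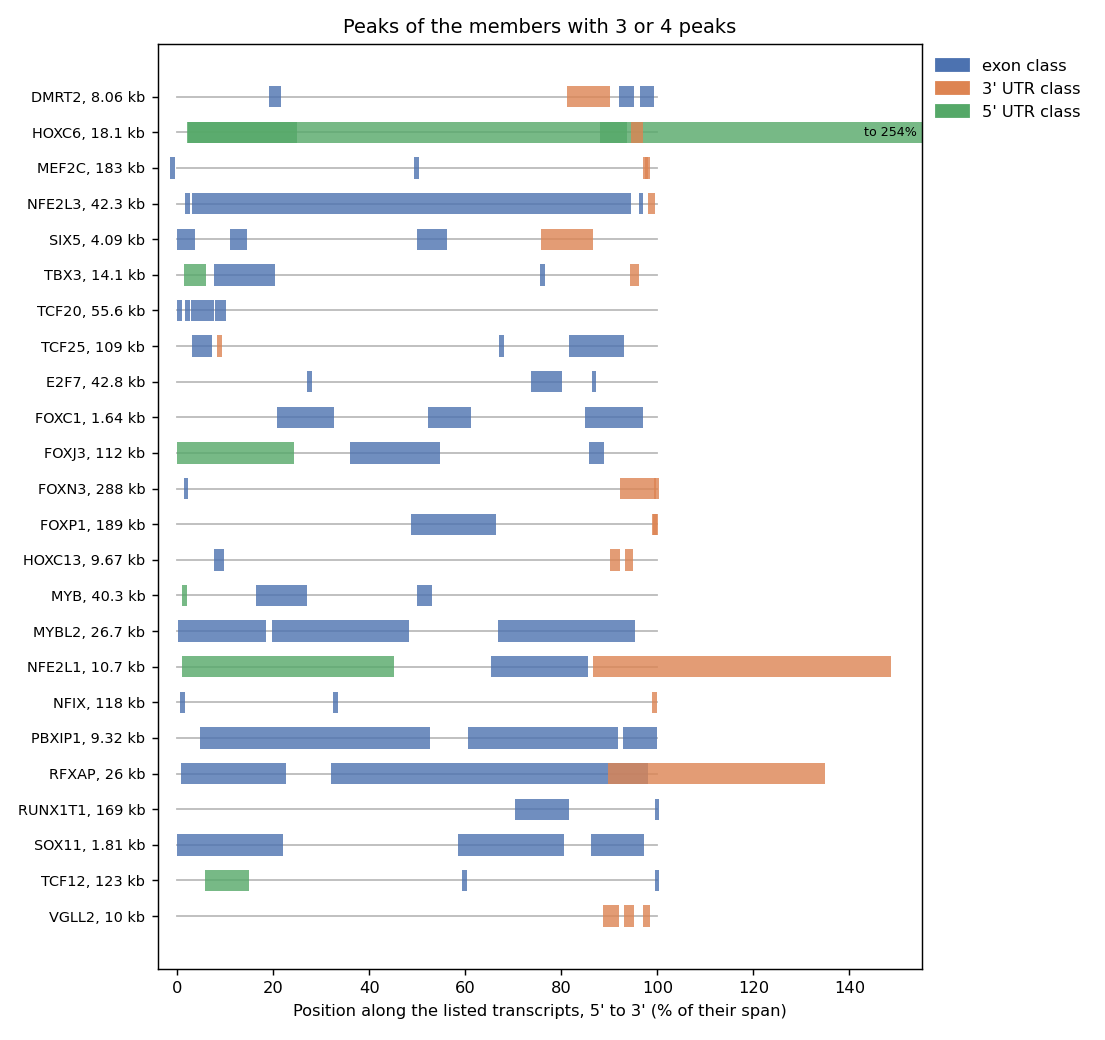
Peaks of 24 identifiers with 3 or 4 peaks along their listed transcripts, drawn 5' to 3' in percent of the span, with peaks narrower than 1% of the span widened to 1% to be seen and the span in kb beside each symbol. Colours give the authors' class, and since 1 identifier can have several transcripts, a 3' UTR class peak can precede an exon class peak, as in DMRT2 and TCF25. The peaks of FOXC1, MYBL2 and PBXIP1 were all in the exon class and those of VGLL2 all in the 3' UTR class, and peaks of HOXC6, NFE2L1 and RFXAP ran past the end of the transcript.

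Levels of the members were lower than those of all identifiers with a peak. The median of the mean FPKM was 4.14 over the members (interval of the median 3.14 to 5.42), against 7.36 over the 8775 identifiers with a peak and a level, and the quartiles were 1.56 and 10.6, against 2.80 and 15.8. The lower level was found in each animal, with medians of 4.02 in TES5, 4.32 in TES6 and 3.90 in TES7, against 7.21, 7.30 and 7.28. All libraries had an FPKM of at least 1 for 106 of 141 (75.2%, 67.4% to 81.6%), against 86.9%, and of at least 10 for 34 (24.1%, 17.8% to 31.8%), against 35.5%. Below 1 in every library were 14 (9.93%, 6.01% to 16.0%), against 7.72%, and 0 were listed at 0, against 0.934%. On the log2(FPKM + 1) scale the median was 2.34 for members and 3.05 for all identifiers with a peak, and it was 2.22 without the letters-only symbols and the identifiers with terms of another function.

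More peaks did not go with higher levels among the members. Mean FPKM had a median of 4.14 for identifiers with 1 peak, 4.82 with 2 and 3.72 with 3 or more. The listed transcripts had median spans of 12708, 39382 and 40271 bp. Over all identifiers with a peak and a level, the median mean FPKM was 7.40, 7.52 and 7.04 in the same order. Their median spans were 19449, 32771.5 and 62983 bp. Flat levels and longer spans were thus not particular to the members, and the part of span was not tested.

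In the order of mean FPKM, 137 of 140 neighbouring pairs of identifiers had ranges over the 3 animals that overlapped. The 3 steps without overlap were those from the identifier listed as NFE2L3 (ENSBGRG00000001515, FPKM 106 in TES5, 130 in TES6 and 106 in TES7) to GATAD2A, from GATAD2A to NFE2L1, and from TCF25 to TCF15. Members next to each other in rank therefore mostly did not differ beyond their spread.

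**Figure D4:**
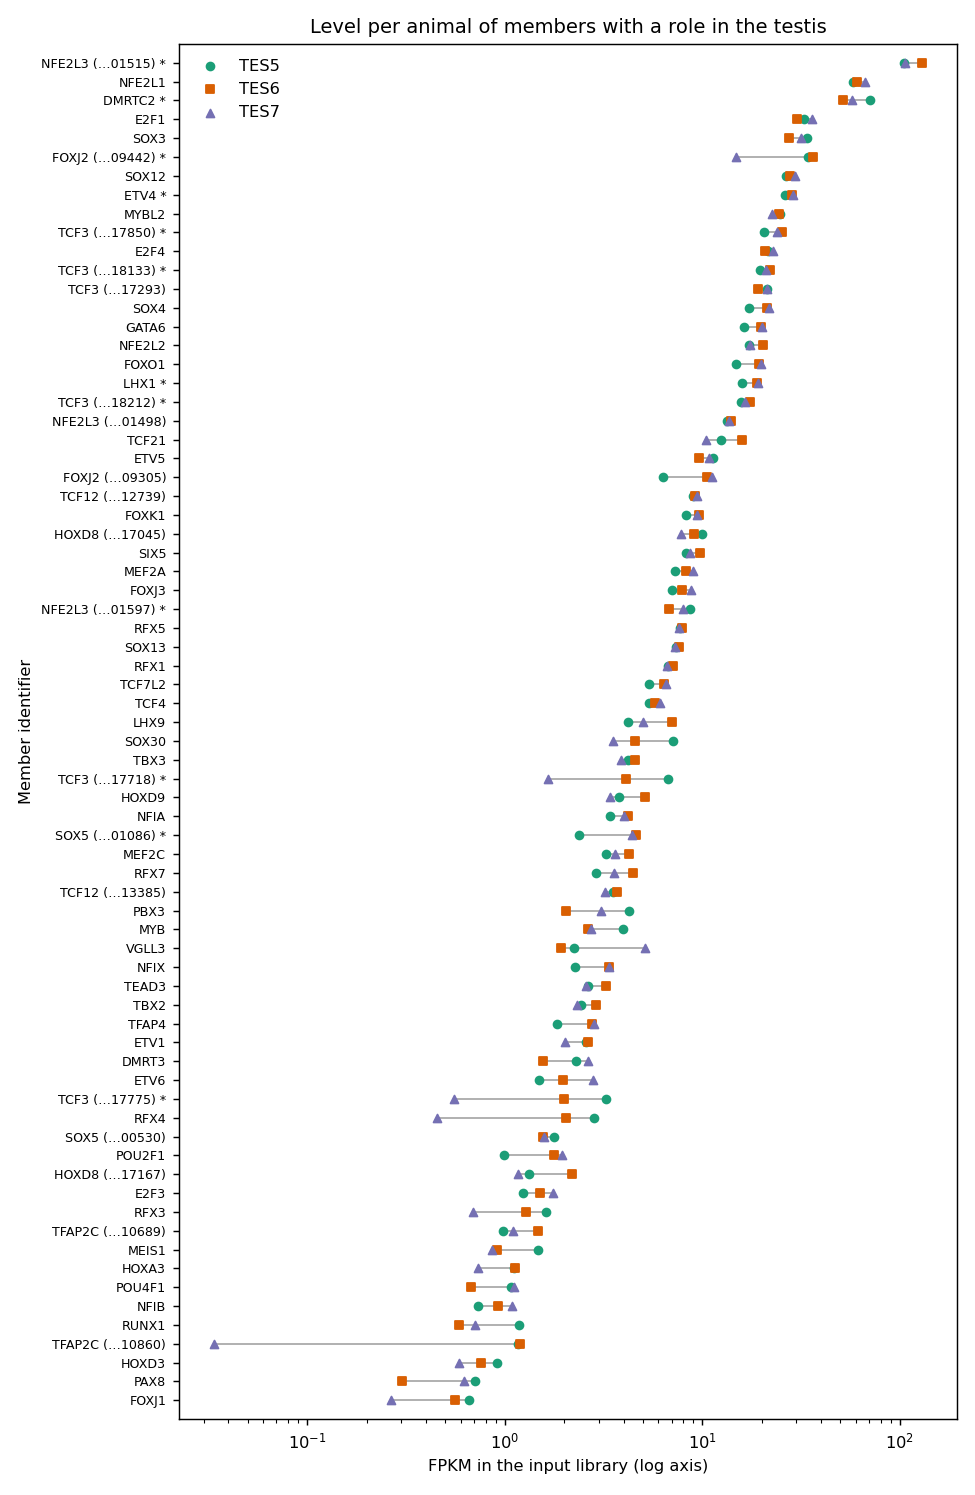
FPKM in the input library of each animal, on a log axis, for members with a role in the testis and identifiers sharing their symbols, ordered by the mean. Grey lines join the lowest and the highest animal, an asterisk marks identifiers whose ontology terms name another function, and the last 5 digits of the identifier are given where a symbol is drawn more than once. E2F1 and SOX3 stand near an FPKM of 30, GATA6 and FOXO1 near 20, ETV5 near 10 and FOXJ1 below 1, and the range over animals is widest for a TFAP2C identifier, which was at 0.0339 in TES7.

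Among the HMG box genes, SOX3, SOX12 and SOX4 stood highest of those carried by 1 identifier. SOX3, an X-linked gene that undifferentiated spermatogonia need, had FPKM of 34.0, 27.6 and 31.5 in TES5, TES6 and TES7 (31.0 ± 3.26, SD, n = 3). SOX12 had 26.5, 27.7 and 29.5 (27.9 ± 1.53), and SOX4, a gene of the same SOXC group that acts in the somatic cells of the fetal gonad, had 17.3, 21.4 and 21.9 (20.2 ± 2.52). SOX3 and SOX12 overlapped in range, and SOX4 lay below both in every animal. SOX3 is a gene of 1 exon here and held peaks of 148 bp (X, 29017912 to 29018059) and 295 bp (X, 29018402 to 29018696), and SOX12, also of 1 exon, held 1 peak of 796 bp (chromosome 12, 54573082 to 54573877).

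SOX30, a gene of round spermatid formation, was at a lower level with more spread. Its FPKM was 7.08 in TES5, 4.59 in TES6 and 3.52 in TES7 (5.06 ± 1.82, SD, n = 3), highest in TES5. It held a 351 bp peak in exon 1 and a 41216 bp peak annotated to exon 3 of 5 (chromosome 8, 75403644 to 75444859). SOX13, at 7.38, 7.67 and 7.27, and TCF7L2, a nuclear partner of beta-catenin in Wnt signalling at 5.38, 6.42 and 6.56, each had 1 exon and 1 3' UTR class peak. SOX13 varied little over the animals (SD 0.206).

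SOX11, a SOXC gene best known from neurons, stood on 4 identifiers. The one on chromosome 9 (ENSBGRG00000015914) had peaks of 201, 400 and 401 bp on a transcript model of 2 exons and FPKM of 3.39, 4.20 and 3.90. Of the other 3, all on unplaced scaffolds, ENSBGRG00000011060 was at 36.5, 20.1 and 24.9, ENSBGRG00000010981 at 2.37, 1.03 and 1.61, and ENSBGRG00000010073, with a ubiquitin protease term, at 0.673, 0.747 and 0.510. The 4 thus differed by more than the spread over animals, and their levels cannot be added up as SOX11. SOX5, whose short form is known from spermatids, stood on ENSBGRG00000000530 at 1.79, 1.56 and 1.59 and on an identifier with a leucine transaminase term (ENSBGRG00000001086) at 2.37, 4.61 and 4.39.

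GATA6, a zinc finger factor of Sertoli and Leydig cells, had FPKM of 16.3, 19.8 and 20.0 (18.7 ± 2.08, SD, n = 3). Its peaks, both of the exon class, were 349 bp in exon 3 of 8 (chromosome 21, 30314881 to 30315229) and 23132 bp annotated to exon 6 (30279347 to 30302478). TES5 was the lowest animal, as it was for FOXO1 and SOX4.

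Forkhead genes were the second largest group, with 19 symbols on 21 identifiers and 36 peaks, and 15 of the 21 reached an FPKM of 1 in all libraries. FOXK2, a regulator of metabolism and autophagy genes, was the highest, at 37.0, 37.2 and 35.0 (36.4 ± 1.22, SD, n = 3), and held exon class peaks of 7699 and 10634 bp. FOXO1, a factor that spermatogonial stem cells need, was at 14.9, 19.4 and 19.9 (18.0 ± 2.78). Its peaks, both in the 3' UTR class, were 201 bp (chromosome 15, 61226680 to 61226880) and 2113 bp (61227030 to 61229142), at the 3' end of the listed transcript. FOXO4, the X-linked member of the same subfamily, was at 4.70, 4.57 and 4.92 with 1 exon peak of 397 bp.

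Among the FOXJ genes the levels covered a wide range. FOXJ3, needed in mice for the survival of meiotic germ cells, was at 7.06, 7.88 and 8.75 (7.90 ± 0.845, SD, n = 3), with peaks of 27035, 21053 and 3402 bp in the 5' UTR class, exon 3 and exon 7. FOXJ2 (ENSBGRG00000009305) was at 6.30, 10.6 and 11.2 with 1 peak of 200 bp in the 3' UTR class. A second identifier listed as FOXJ2 (ENSBGRG00000009442), with a glucose transporter term and SLC2A3 as the RefSeq neighbour, was at 34.2, 36.5 and 14.8. FOXJ1, the master factor of motile cilia, was below 1 in all animals, at 0.660, 0.562 and 0.267, with 1 peak of 499 bp in the last exon.

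The other forkhead genes lay mostly in the middle of the members' range. FOXP4 was at 9.13, 12.6 and 12.4, FOXK1 at 8.31, 9.62 and 9.45, and FOXM1, a driver of mitotic gene expression, at 8.65, 6.84 and 7.31. FOXP1 (2.34, 2.06 and 2.32) held 3' UTR class peaks of 201 and 301 bp and an exon class peak of 33480 bp. FOXF1 and FOXC1, regulators of mesoderm, had means of 0.391 and 0.900. FOXC1 had 3 narrow peaks (196, 147 and 196 bp) on a model of 2 exons in spite of that low level.

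Homeobox genes were the largest group, with 24 symbols, 26 identifiers and 45 peaks, and their median mean FPKM was 1.86. Of the 26, 14 reached an FPKM of 1 in all libraries. The highest value belonged to the identifier listed as PAX6 (51.3, 41.1 and 73.3), and the next to that listed as LHX1, which had a ribosome term (15.8, 18.9 and 19.1). Of those without such a term, HOXD8 (ENSBGRG00000017045) was at 9.96, 9.11 and 7.77 and SIX5 at 8.25, 9.78 and 8.70. A second HOXD8 identifier (ENSBGRG00000017167) was at 1.33, 2.18 and 1.17, below the first in every animal, and which of them is HOXD8 was not checked. LHX9, a factor of gonad formation, was at 4.21, 7.06 and 4.99 (5.42 ± 1.47, SD, n = 3), with a peak of 1482 bp in exon 5 of 6 and one of 249 bp in the 3' UTR class. PAX8, a thyroid and kidney factor, was at 0.704, 0.303 and 0.620.

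The HOX genes, which pattern the body axis, counted 9 symbols on 11 identifiers with 18 peaks, of which the exon class held 8, the 3' UTR class 7 and the 5' UTR class 3. Single values ran from 0.591 to 9.96 with a median mean FPKM of 1.48, and 13 of the 18 peaks were at most 1000 bp wide. The HOXC cluster of chromosome 5 held 11 of the 18 peaks. By the listed symbols, along its plus strand came HOXC13, HOXC10 (ENSBGRG00000003864), HOXC12, a second HOXC10 identifier (ENSBGRG00000003899) and HOXC6. HOXC12 thus lay between identifiers that share the symbol HOXC10, and which of them is HOXC10 was not checked. HOXC13 had FPKM of 0.961, 1.43 and 2.06 and 3 peaks of 151 to 200 bp.

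HOXC6, at 4.02, 3.60 and 3.90 (3.84 ± 0.215, SD, n = 3), held 3 5' UTR class peaks and 1 3' UTR class peak. One of the former, 45543 bp from 81740120 to 81785662, contained the other 3 peaks of HOXC6, ran past the end of its listed transcript at 81757835 and was the widest HOX peak. In the HOXD cluster of chromosome 2, HOXD9 (3.77, 5.12 and 3.40), HOXD8 and HOXD3 (0.912, 0.759 and 0.591) followed each other, with peaks of 150 to 926 bp. HOXA3 (1.11, 1.13 and 0.734) and HOXB2 (0.773, 1.17 and 0.918) had 1 exon class peak each.

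Partners of the HOX proteins were at low levels. MEIS1 was at 1.47, 0.913 and 0.863, PBX3 at 4.28, 2.05 and 3.08 and PBX4, a gene known for expression in spermatocytes, at 3.53, 2.96 and 1.04. TES5 was the highest animal for all 3 of these. The POU genes were at similar or lower levels. POU2F1, POU4F1, POU3F1 and POU2F2 had means of 1.58, 0.952, 0.455 and 0.220, none reaching an FPKM of 1 in all libraries, and both peaks of POU2F2 lay outside its listed transcript. Over all members, 4 of 241 peaks (1.66%) lay outside the listed transcript, against 1.24%.

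The T-box, TEA domain, RUNX and MEF2 groups were small. TBX2, a repressor related to TBX3, was at 2.44, 2.91 and 2.32 with a peak of 876 bp, and TBX18 and TBX21 were below 1 in every animal. VGLL3, a cofactor of TEAD proteins, stood out among the animals, at 2.25 in TES5, 1.93 in TES6 and 5.14 in TES7 (3.11 ± 1.77, SD, n = 3). TES7 was above both others by at least 2-fold, which was found for 1 of the 106 members that reached an FPKM of 1 in all libraries, against 0.144% of all such identifiers. VGLL3 held a 149 bp exon class peak (chromosome 1, 969728 to 969876) and a 29281 bp 3' UTR class peak (982395 to 1011675). VGLL2 held 3 peaks of 149 to 348 bp in the 3' UTR class at FPKM of only 0.345, 0.267 and 0.487, and TEAD3, at 2.64, 3.27 and 2.58, held 1 of 396 bp.

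MEF2A and MEF2C encode MADS box factors of muscle that also act in Leydig cells. MEF2A was at 7.26, 8.29 and 9.02 with 1 peak of 397 bp in the 3' UTR class. MEF2C was at 3.27, 4.25 and 3.63 (3.72 ± 0.501, SD, n = 3) with 3' UTR class peaks of 201 and 300 bp (chromosome 8, 96197879 to 96198079 and 96198428 to 96198727) and exon class peaks of 150 and 151 bp, of which the last lay outside the listed transcript. RUNX1 was at 1.18, 0.585 and 0.709. RUNX3 stood on ENSBGRG00000007540 at 24.5, 19.7 and 20.0 and on ENSBGRG00000007394 at 5.11, 7.68 and 6.47, ranges that did not overlap.

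All 10 ETS identifiers reached an FPKM of 1 in all libraries, and 12 of their 15 peaks were in the exon class. ETV5, which spermatogonial stem cells need for self-renewal, was at 11.3, 9.67 and 10.9 (10.6 ± 0.840, SD, n = 3). It held an 11266 bp peak annotated to exon 6 of 12 (chromosome 1, 88292191 to 88303456) and a 150 bp peak in the 3' UTR class (88320986 to 88321135). The identifier listed as ETV4 was at 26.4, 28.5 and 28.7, with an RNA helicase term and DHX8 as its RefSeq neighbour. ETV1 was at 2.57, 2.64 and 2.02 and ETV6 at 1.49, 1.98 and 2.80, both below ETV5 in every animal. ETV2, a factor of blood vessel formation, was at 8.46, 5.12 and 6.56, and ETS1, ETS2, ELK3 and ELK4 had means from 3.19 to 4.91.

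The E2F and MYB genes act in cell division and germ cells, and their levels covered a wide range. E2F1, an activator of S phase genes, was at 32.8, 30.2 and 35.8 (32.9 ± 2.76, SD, n = 3), with 1 peak of 147 bp in the last of 7 exons (chromosome 12, 57295753 to 57295899). E2F4, a repressor of the same family, was at 21.5, 20.7 and 22.9 (21.7 ± 1.09) with 1 peak of 2136 bp. E2F1 lay above E2F4 in every animal, while E2F2 and E2F7 had means of 2.80 and 1.66 and E2F3 was at 1.24, 1.52 and 1.76. MYBL2, which drives the entry into mitosis, was at 24.7, 24.6 and 22.6 (23.9 ± 1.15) and held 3 wide exon class peaks of 4871 to 7625 bp. MYB, best known from blood progenitors, was at 3.96, 2.64 and 2.74.

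The NFE2 group, leucine zipper factors of the response to oxidative stress, had the highest median of the groups with more than 2 identifiers (mean FPKM 16.0). NFE2L1, which raises proteasome genes, was at 57.7, 60.6 and 66.5 (61.6 ± 4.48, SD, n = 3) and was the highest member whose symbol and ontology terms gave no conflict and that was not matched by letters only. Its 3 peaks on chromosome 19 were 4722 bp in the 5' UTR class (28199995 to 28204716), 2159 bp in exon 3 of 6 (28206880 to 28209038) and 6635 bp in the 3' UTR class (28209138 to 28215772), the last running past the end of the listed transcript. NFE2L2, the NRF2 gene, was at 17.2, 20.2 and 17.5. NFE2L3 (ENSBGRG00000001498) was at 13.4, 14.0 and 13.7, and the third identifier listed as NFE2L3 (ENSBGRG00000001597), with a heterochromatin term and CBX3 as a neighbour, was at 8.68, 6.81 and 8.02. Without the identifiers of other terms, the order NFE2L1, NFE2L2, NFE2L3 held in every animal, with NFE2 last at 0.664, 1.75 and 1.39.

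The bHLH group was marked by TCF3, a broadly expressed E protein, whose symbol stood on 6 identifiers of chromosome 8 between 47595532 and 47823074. ENSBGRG00000017293, which had terms of DNA binding, was at 21.2, 19.2 and 21.3, with 1 peak of 2823 bp in the 3' UTR class. ENSBGRG00000017718 and ENSBGRG00000017775, both with a phospholipid transporter term and ATP8B3 as a RefSeq neighbour, were at 6.67, 4.09 and 1.66 and at 3.25, 2.00 and 0.556. This pair was highest in TES5 and lowest in TES7, unlike the first. ENSBGRG00000017850 and ENSBGRG00000018133, both with an exonuclease term and REXO1 as a neighbour, had means of 23.3 and 20.9, and ENSBGRG00000018212, with a dopamine receptor signalling term and KLF16 as a neighbour, had one of 16.5.

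TCF21, a factor of Sertoli and interstitial cell precursors, was at 12.4, 15.9 and 10.5 (12.9 ± 2.76, SD, n = 3) with 1 peak of 393 bp in exon 1. TCF4 was at 5.36, 5.75 and 6.11, and TCF12 at 8.94, 9.23 and 9.37 on ENSBGRG00000012739 and at 3.53, 3.70 and 3.21 on ENSBGRG00000013385. The identifier named TCF15, after a gene known from the somites, was at 38.3, 36.5 and 36.2. It held 1 peak of 15266 bp in the 5' UTR class, on a listed transcript of 62917 bp. Its ontology terms named the nucleus or cytoplasm only, so the name could not be checked by them.

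Among the DM domain genes, DMRT2 and DMRT3 lie close together on chromosome 7. DMRT2 was at 1.95, 1.82 and 1.78 (1.85 ± 0.0879, SD, n = 3) with 4 peaks of 200 to 725 bp, 3 of the exon and 1 of the 3' UTR class, from 76654485 to 76660955. DMRT3, which is known from Sertoli cells, was at 2.29, 1.56 and 2.63 with 1 peak of 294 bp in the last of 2 exons (76573117 to 76573410). Their ranges overlapped, while the identifier listed as DMRTC2 was far higher, at 70.8, 51.3 and 57.6. In the AP-2 group, TFAP2C, a factor of primordial germ cells, stood on ENSBGRG00000010689 at 0.981, 1.48 and 1.11 and on ENSBGRG00000010860 at 1.17, 1.20 and 0.0339. TFAP2D was at 12.1, 15.4 and 17.2, with a reverse transcriptase term. The NFI genes NFIA, NFIX and NFIB had means of 3.88, 3.00 and 0.913, and 5 of their 6 peaks were in the exon class.

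The RFX genes encode winged helix factors that act on cilia genes and, in the testis, on spermiogenesis, and RFX5 on MHC class II genes. RFX5 (7.72, 7.91 and 7.62) and RFX1 (6.71, 7.15 and 6.60) varied little. RFX3 was at 1.63, 1.28 and 0.688, and RFX4, a gene with a transcript known from the testis, at 2.82, 2.06 and 0.453. TES7 was the lowest animal in RFX1, RFX3, RFX4 and RFX5, by a wide margin in RFX4. RFX7 was at 2.90, 4.44 and 3.59, lowest in TES5. RFX4 held peaks of 1845 bp in exon 1 and 150 bp in exon 14 of 14 (chromosome 5, 34644706 to 34644855).

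The spread over the 3 animals was like that of all identifiers with a peak. Among members that reached an FPKM of 1 in all libraries, the median coefficient of variation was 12.2%, against 11.6%. TES7 was below both other animals by at least 2-fold for 3 of 106 members (2.83%), against 0.564% of all such identifiers. They were PBX4 and, of those with terms of another function, the identifiers listed as TCF3 (ENSBGRG00000017718) and FOXJ2 (ENSBGRG00000009442). In TES5 and TES6 there were 0 of 106 below or above both others by that much, against 0.0524% to 0.262% of all.

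The members with the largest coefficients of variation at a mean FPKM of at least 1 were RFX4 (68.0%), TCF19 (ENSBGRG00000011670, 62.8%), VGLL3 (56.9%) and the identifiers listed as TCF3, ENSBGRG00000017775 (69.6%) and ENSBGRG00000017718 (60.6%). FOXA1, at 1.65, 0.934 and 0.511, was highest in TES5 and lowest in TES7. The identifier named FOXA1, after a forkhead pioneer factor of endoderm, had a transcript model of 33 exons over 206524 bp. Whether this model belongs to FOXA1 was not checked. RFX4, PBX4, RFX3 and SOX30 shared that order, which was not that of most members. Of the 106, 49 (46.2%) were lowest in TES5, against 41.8% of all such identifiers, and 28 (26.4%) in TES7, against 28.0%. The summed spermatocyte markers were also highest in TES5 (76.5) but lowest in TES6 (53.8, with 58.8 in TES7), as were the 4 markers on 1 identifier each, and the summed spermatogonial markers were highest in TES7. The part of cell makeup in these values was not tested.

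**Figure D5:**
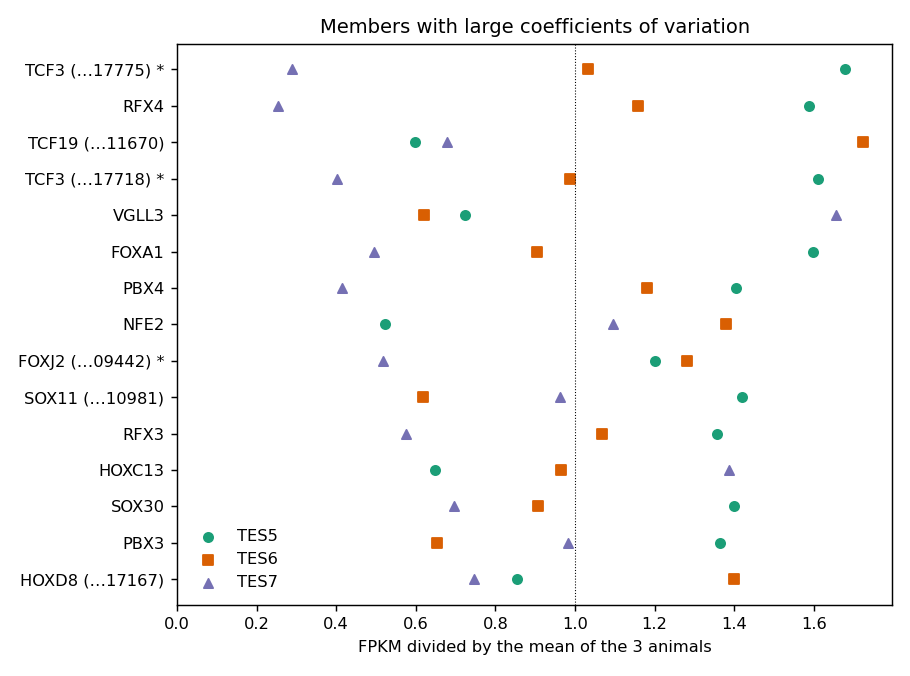
Values of 15 members with large coefficients of variation among those with a mean FPKM of at least 1, as FPKM of each animal divided by the mean of the 3 (dotted line at 1). Asterisks mark identifiers whose ontology terms name another function, and the last 5 digits of the identifier are given where a symbol stands on more than 1. TES7 is the lowest animal for RFX4, FOXA1, PBX4, RFX3 and SOX30 and the highest for VGLL3 and HOXC13.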

How the data were processed

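RNA of 3 cattle-yak testes was sequenced as m6A IP and input libraries. The authors trimmed reads with Trimmomatic, removed ribosomal reads with SortMeRNA and aligned them to LU_Bosgru_v3.0 (Ensembl release 99) with HISAT2 (version 2.0.4 in the submitters' processing notes). They called peaks with MeTDiff (fragment length 200, peak p cutoff 0.01, FDR 0.05, screening p 0.05, fold 1.5) and annotated them with ChIPseeker. The deposited peak list gives positions, classes, genes and transcripts, as 1 list for the group with no score. Peak calling is described per sample, and how the animals were combined is not given in the sources used here. The FPKM values deposited by the authors cover 20953 genes in the 3 input libraries, and the program that made them is not given in the sources used here. They keep no read numbers, so depth per gene is unknown and no detection limit could be given.

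Here, listed peaks were counted by class, exon and width, with Wilson 95% intervals. Means and SD of FPKM were taken over the animals, and medians on log2(FPKM + 1). No test was run, because there was 1 condition. Symbols came from the peak list. The RefSeq annotation of Bosgru_T2T1.0 served for names and neighbouring genes only, and its coordinates were not used. Named members are, per family, those with the most peaks and the highest level, over all members the extremes of level, peak number, width and spread, symbols on several identifiers, and genes with a textbook role in the testis. FOXO4, FOXO6, HOXB2, PBX3 and other members given to complete a family were named after their values were seen. The members and lists were chosen with earlier results of these data known. The check of ontology terms and the alternatives without the identifiers concerned were added after seeing the data. Alternatives were other minimum levels and pseudocounts, unique, merged or narrow peaks, weighting by width, counting by symbol, rescaled libraries and each animal left out. The scripts ran under Python 3.11.15 with pandas 2.3.3, numpy 2.4.6, matplotlib 3.10.9 and SciPy 1.17.1, and the procedures were tested on simulated data. No genome sequence was used here, so motifs and peak sequences were not analysed. A few genes are not reported here.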

Additional observations from a re-analysis of the deposited data

How the results depend on the processing

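Weighted by width, the exon class held 74.1%, the 3' UTR class 13.6% and the 5' UTR class 12.3% of member peaks, and among peaks of at most 1000 bp the 5' UTR class held 4.35%. Last exons, with 23.6% of all exon class peaks, held 39.6% of those of at most 1000 bp and 16.1% of those in transcripts with at least 3 exons, or 30.4% with both limits. A single peak was listed for 43.3% of members when counted by symbol. The share at the minimum FPKM was 91.5% at 0.5, 100% above 0, 85.1% by the mean, and 75.9% to 80.1% with each animal left out. The median of mean log2(FPKM + 1) was 2.05 with a pseudocount of 0.1, 2.89 at an FPKM of at least 1, 2.22 without letters-only symbols and identifiers of other terms, and 2.31 to 2.41 with each animal left out. With DNA-binding terms required, 124 peaks on 68 identifiers remained, not all of them free of terms of another function. Beyond the alternatives' own construction, the cause was not tested. None of 510 alternative means of the 102 named identifiers moved by more than its SD, which leaving out 1 of 3 animals cannot do by construction. A stricter peak score was not run, since the list gives none. No paired analysis was possible because peaks are listed once for all 3 animals and FPKM values exist for the input side only.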
